A study of Mus musculus with 8 samples.

Results

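The genes examined here are the neighbours of Terf2ip, the gene that encodes RAP1, on mouse chromosome 8. They are the genes whose start lies within 5 Mb on either side of the start of Terf2ip in GRCm38.p6, leaving out Terf2ip itself and the shelterin genes Terf2 and Acd. The annotation places 186 such genes in the window, 79 of them protein coding, and 78 had a probe on the array. Of these 78 genes, 69 were bright enough to test, among 25065 genes or transcribed features tested in all.

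The samples were gonadal white fat from 4 Rap1-/- mice and 4 wild-type (WT) mice, each hybridised to its own one-colour array. All 8 mice were 10-week-old females on a C57BL6/129SV (90%:10%) background. Rap1-/- mice carry the knockout allele in the whole body, because a floxed allele was recombined by an EIIa-cre transgene active in the early embryo. The transgene was later bred out of the colony. The arrays measure RNA from whole tissue, so that fewer cells of a type and less RNA per cell cannot be told apart.

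RAP1 belongs to shelterin, the complex of proteins bound to the TTAGGG repeats of chromosome ends, and it is also found at sites along the chromosome arms. Genes close to an engineered locus tend to be inherited together with it, and neighbouring genes can share promoters, enhancers and chromatin domains. The comparison of Rap1-/- with WT asked whether the genes around the altered locus had other levels in knockout fat. DNA of the region was not analysed here, so that loss of RAP1, the altered allele and any difference in strain origin of the flanking DNA cannot be told apart.

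Kars, the lysyl-tRNA synthetase gene, is the closest neighbour. It is transcribed away from Terf2ip, and the annotated starts of transcription of the 2 genes lie 5 bases apart, so their promoter windows overlap. Distances in Mb are instead taken between the lowest coordinates of the genes, whatever their strand. The sequences are those of RefSeq (GRCm38.p6), 250 bases before to 50 bases after the annotated start, and 3 members are shown. Kars is shown for its shared promoter, Cyb5b because it holds the telomeric repeat TTAGGG, and Zfhx3 because it differed most. Of the 7 tested neighbours that hold TTAGGG, only Cyb5b had an unadjusted limma p under 0.05, and only on its brighter probe. For Kars (minus strand, chr8:112011305-112011604), capitals mark the 104 bases shared with the window of Terf2ip. For Cyb5b (plus strand, chr8:107150411-107150710), capitals mark the TTAGGG, which begins 211 bases before the start. For Zfhx3 (plus strand, chr8:108714394-108714693), capitals mark the 50 bases from the annotated start of transcription, which lies 435 kb inside the gene as the annotation draws it.
Kars: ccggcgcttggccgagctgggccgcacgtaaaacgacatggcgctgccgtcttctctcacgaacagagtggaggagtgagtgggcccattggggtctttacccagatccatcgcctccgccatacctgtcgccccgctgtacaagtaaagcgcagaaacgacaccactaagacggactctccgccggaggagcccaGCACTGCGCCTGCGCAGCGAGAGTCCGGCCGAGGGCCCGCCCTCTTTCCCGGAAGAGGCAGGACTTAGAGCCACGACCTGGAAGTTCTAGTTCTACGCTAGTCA
Cyb5b: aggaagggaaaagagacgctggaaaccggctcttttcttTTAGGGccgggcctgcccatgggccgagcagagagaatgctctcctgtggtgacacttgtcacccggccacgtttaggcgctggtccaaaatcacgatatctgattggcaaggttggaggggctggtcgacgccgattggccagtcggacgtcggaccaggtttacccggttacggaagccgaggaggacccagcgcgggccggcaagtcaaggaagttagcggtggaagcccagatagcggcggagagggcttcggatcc
Zfhx3: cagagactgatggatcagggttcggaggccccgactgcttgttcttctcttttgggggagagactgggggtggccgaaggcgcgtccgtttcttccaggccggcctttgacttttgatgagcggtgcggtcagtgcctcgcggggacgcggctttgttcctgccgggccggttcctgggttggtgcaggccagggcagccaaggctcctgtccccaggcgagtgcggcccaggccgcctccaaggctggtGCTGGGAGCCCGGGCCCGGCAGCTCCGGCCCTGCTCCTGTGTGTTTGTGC

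All 3 windows are rich in G and C, at 62.3% in Kars, 60.7% in Cyb5b and 67.3% in Zfhx3, against a median of 52.7% over the windows of all genes. TTAGGG, searched on both strands, was found in 8 of the 63 windows of the 54 tested neighbours that have one (12.7%), and in 10.6% of the 32851 windows of all genes. The 7 neighbours with a match were Cyb5b, Nqo1, Zfp821, Phlpp2, Cog4, Ddx19b and Aars. The double repeat was found in 4 windows of all genes and in 0 windows of the neighbours. A match of these letters is a description of the window and not a binding site.

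A probe counted as bright where the scanner software marked it well above background, which 59.7% to 65.2% of spots were, and no spot was saturated. The 75th percentile of the signal, to which every value is scaled, was 392 to 497 intensity units in Rap1-/- and 302 to 431 in WT. Values are given below in log2 units relative to this percentile, and every difference is Rap1-/- minus WT. One probe of Terf2ip was at background in all 4 Rap1-/- mice and averaged 0.26 ± 0.18 in WT (SD, n = 4), which separates the arrays as their labels do. The other probe of this gene was higher in Rap1-/-, with 0.97 ± 0.09 there against -1.41 ± 0.10 in WT (SD over 4 arrays). All 8 adipocyte markers, among them Adipoq and Plin1, were well above background on all 8 arrays. Each slide carried 2 Rap1-/- and 2 WT arrays, with Rap1-/- at positions 3 and 4 and WT at positions 1 and 2, so that genotype and position on the slide cannot be told apart.

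Of the protein-coding genes in the window, 2 had no probe and were not measured, Tle7 and Gm38523. The 78 genes with a probe had 97 probes, of which 82 were bright on 4 or more arrays, and 66 of the 69 tested genes were bright on all 8. Of the 69 genes, 55 lie on the side of lower coordinates, here called left, and 14 on the right. The 9 genes without a bright probe were Tmed6, Calb2, Chst5, Cntnap4 and Clec3a, well above background on 0 arrays, and Clec18a, Pdpr, Fa2h and 1700030J22Rik, whose probes were so on 1 or 2 arrays. Fa2h, which makes hydroxylated fatty acids, was bright on 2 Rap1-/- arrays and on 0 WT arrays, and 1700030J22Rik on 0 Rap1-/- and 2 WT arrays. The sperm gene Pmfbp1 was just inside the limit, bright on 3 Rap1-/- and 2 WT arrays.

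Over the whole neighbourhood the signal differed little between the genotypes. The median difference over the 69 genes was -0.02, against -0.04 over all genes tested, with 31 genes above and 38 below 0 (55.1% below, against 59.9% of all genes). The median size of the difference was 0.11 both among the neighbours and over all genes. In the limma fit across all genes, 0 neighbours passed a Benjamini-Hochberg adjusted p of 0.05, where 0.00399% of all genes did, namely Terf2ip alone. Terf2ip was represented there by its probe with the higher mean, the one that was higher in Rap1-/-. Zfhx3 had an adjusted p of 0.134, under a looser threshold of 0.15 that 0.012% of all genes passed, and the other neighbours had 0.874 or more.

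At an unadjusted p under 0.05, 8 of the 69 neighbours (11.6%) differed, against 4.98% of all genes. A gene is said below to be called where it met this threshold, which makes no allowance for the number of genes tested. Vps4a, Zfp612 and Tmem170 were higher in Rap1-/- (3 genes, where 1.67% of all genes were called higher), and Zfhx3, Chst4, Cyb5b, Adat1 and Syce1l were lower (5 genes, where 3.31% were called lower). Over all 69 neighbours, 48 had the same sign within both slides, and the share over all genes was not counted. The 4 arrays of each genotype did not overlap for Vps4a and Tmem170, both higher, where 0.898% of all genes were, and for Zfhx3 and Syce1l, both lower, where 2.36% were. Together these are 5.80% of the neighbours against 3.26% of all genes. A difference over 0.5 in size was measured for 5 neighbours (7.25%), against 4.47% of all genes. These were Zfhx3, Chst4 and Syce1l, and, with p of 0.05 or more, Marveld3 and Vat1l. The split of 3 higher and 5 lower, beside 418 higher of the 1248 called among all genes, was 5 and 2 with arrays scaled to spiked-in E1A controls, which moved the median of all genes to 0.15 and made 981 of 1090 called genes higher. It was 4 and 3 with the authors' value table, where 608 of 1138 called genes were higher. Without Rap1-/- replicate 1, 4 of 69 were called (5.80%, against 3.49% of all genes). Within slide 1 alone 4.35% of the neighbours were called, against 4.52% of all genes, and within slide 2 alone 2.90%, against 3.52%.

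**Figure D1:**
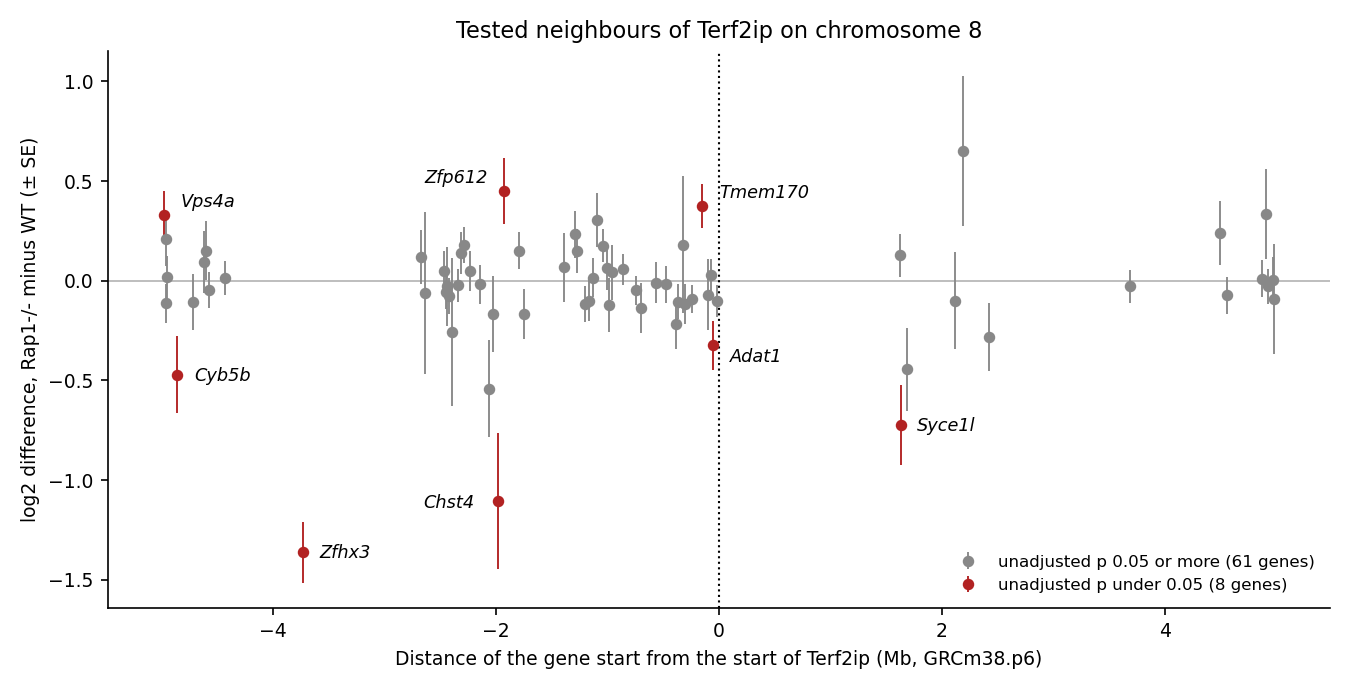
Rap1-/- minus WT difference in log2 units on the vertical axis (points, genes; bars, SE; n = 4 arrays per genotype) for the 69 tested neighbours by the distance of their start from that of Terf2ip (horizontal axis, Mb; dotted line, Terf2ip, not drawn). Of the 8 genes with an unadjusted limma p under 0.05 (red), 7 lie on the left, the farthest being Vps4a at -4.98 Mb. The other, Syce1l, lies on the right at 1.63 Mb. Zfhx3 lies lowest at -1.36.

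Zfhx3 encodes a large zinc finger and homeobox transcription factor, and it showed the largest difference of the neighbourhood. Its lowest coordinate, which the distance uses, lies 3.73 Mb left of that of Terf2ip. The signal was 0.53, 0.50, 0.42 and -0.03 on the 4 Rap1-/- arrays, against 1.61, 1.54, 1.96 and 1.75 on the 4 WT arrays. Every Rap1-/- array was below every WT array, by more than the spread within either genotype. The signal was 2.57-fold lower in Rap1-/- (difference -1.36 ± 0.15 SE, 95% interval -1.71 to -1.01, two-sided exact permutation p = 0.0286, the smallest that 4 against 4 arrays allow). By limma's p it ranked number 3 among all genes tested. Zfhx3 kept an unadjusted p under 0.05 under each processing tried and without each array, with differences of -1.42 to -1.17, and was -1.06 within slide 1 and -1.66 within slide 2. Over this processing its adjusted p ran from 0.0186 with normexp background correction to 0.875 with a replicate block, on either side of the threshold.

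Chst4 encodes a sulfotransferase that adds sulfate to N-acetylglucosamine of glycans. Its signal was low in this fat, with -3.11, -2.66, -3.02 and -3.83 on the Rap1-/- arrays, against -2.32, -1.52, -2.79 and -1.57 on the WT arrays. One Rap1-/- array lay above the lowest WT array, so the groups overlapped. The difference was -1.11 ± 0.34 SE (95% interval -1.89 to -0.32, limma p = 0.0114, exact permutation p = 0.0571). It was -0.55 with the authors' value table and -0.66 with normexp, with p under 0.05 in both.

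Syce1l, related to a synaptonemal complex gene of meiosis, lies 1.63 Mb to the right. It read -4.54, -4.05, -4.58 and -4.52 in Rap1-/-, against -3.99, -3.18, -3.72 and -3.91 in WT. All 4 Rap1-/- arrays were lower than any WT array, but the signal was close to the detection limit, and 1 of the 4 Rap1-/- arrays was not well above background. The difference of -0.72 ± 0.20 SE (limma p = 0.0065, exact permutation p = 0.0286) was -0.71 within slide 1 and -0.73 within slide 2. Syce1l fell short of p 0.05 with the authors' value table (-0.14) and with E1A scaling (-0.54), and was -0.29 with normexp.

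Cyb5b, a cytochrome b5 of the outer mitochondrial membrane, and Adat1, a deaminase that edits tRNA, were lower on their brighter probe. Cyb5b read 3.88, 4.21, 3.80 and 4.33 in Rap1-/-, against 4.86, 4.07, 4.47 and 4.70 in WT, and Adat1 read -2.92, -2.80, -2.62 and -2.46, against -2.27, -2.55, -2.25 and -2.44 in WT. Both pairs of groups overlapped. The differences were -0.47 ± 0.19 SE for Cyb5b (limma p = 0.0395, exact permutation p = 0.0857) and -0.32 ± 0.12 SE for Adat1 (limma p = 0.0298, exact permutation p = 0.0571). With single arrays left out, the limma p stayed under 0.05 in 3 of 8 fits for Cyb5b and in 4 of 8 for Adat1. Both calls were lost without Rap1-/- replicate 1, WT replicate 1 or WT replicate 3, that of Cyb5b also without Rap1-/- replicate 3 or WT replicate 4, and that of Adat1 also without Rap1-/- replicate 2. With the slide as a block, Cyb5b was not called and Adat1 was.

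Vps4a, Zfp612 and Tmem170 were the 3 neighbours called higher in Rap1-/-. Vps4a encodes an ATPase that takes apart ESCRT-III filaments in endosome sorting and membrane scission. It read -0.19, -0.30, -0.24 and -0.33 in Rap1-/-, against -0.36, -0.59, -0.89 and -0.55 in WT, so that the groups were apart but only narrowly. The difference was 0.33 ± 0.12 SE (1.26-fold, limma p = 0.0224, exact permutation p = 0.0286). Zfp612, a zinc finger protein, had 0.51, 0.01, 0.24 and -0.21 in Rap1-/-, against -0.21, -0.25, -0.22 and -0.58 in WT, with overlap at the lowest Rap1-/- array. Its difference was 0.45 ± 0.17 SE (limma p = 0.0257, exact permutation p = 0.0571). The transmembrane protein gene Tmem170, the nearest of the 3 at 0.15 Mb left, read -3.50, -3.54, -3.34 and -3.23 in Rap1-/-, against -3.77, -3.90, -3.87 and -3.58 in WT. The groups did not overlap, and the difference was 0.37 ± 0.11 SE (limma p = 0.0084, exact permutation p = 0.0286). This difference was 0.03 with normexp background correction, no longer called, and 0.17 with the authors' value table. Without Rap1-/- replicate 1 neither Vps4a (0.31) nor Zfp612 (0.33) was called. The call of Zfp612 was also lost without Rap1-/- replicate 3 (0.41) or WT replicate 4 (0.36).

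**Figure D2:**
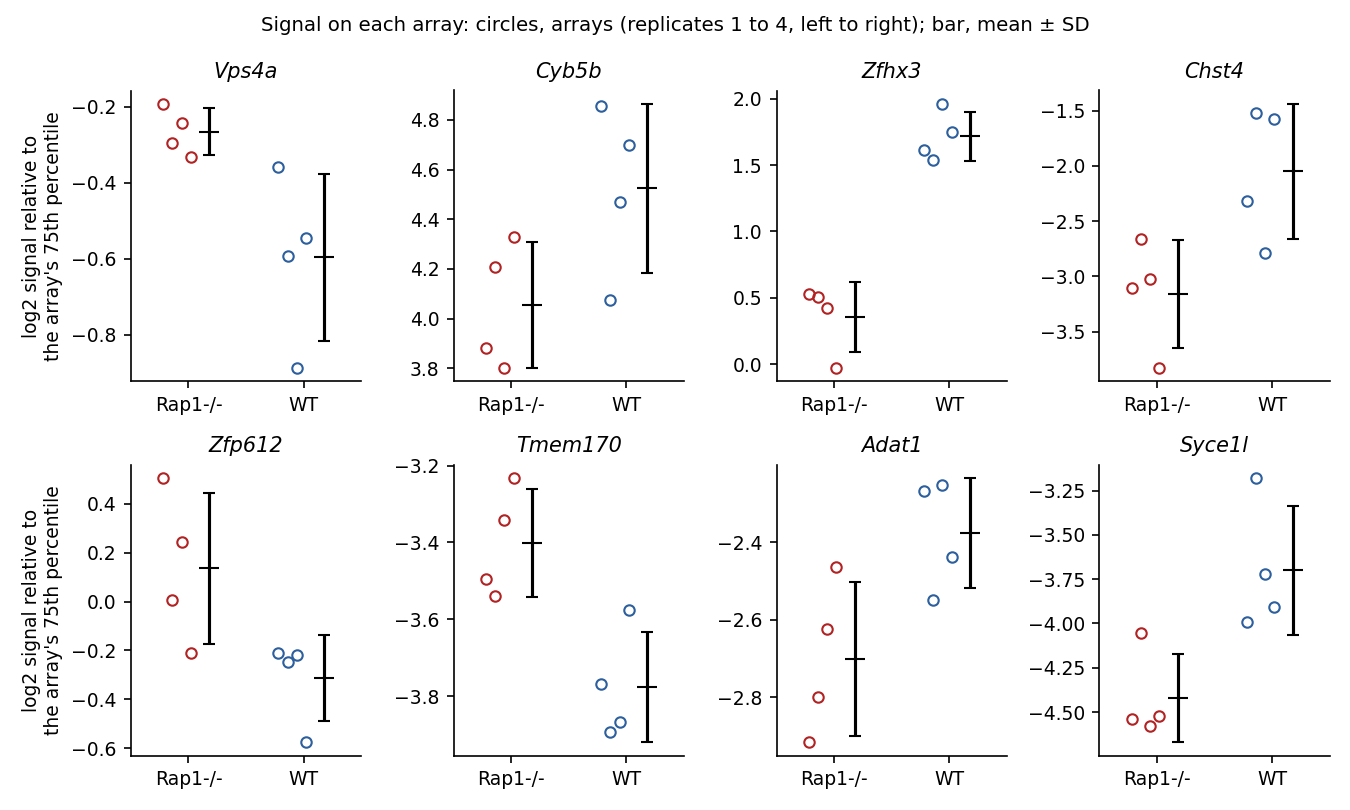
Array by array signal of the 8 neighbours with an unadjusted limma p under 0.05. The vertical axis, in log2 units above or below the 75th percentile of the array, differs between genes (circles, arrays, replicates 1 to 4 from left to right; bars, mean ± SD, n = 4; Rap1-/- red, WT blue). The groups lie apart for Vps4a, Zfhx3, Tmem170 and Syce1l and overlap for the other 4 genes.

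Of the 4 tested genes closest to Terf2ip on either side, Adat1 and Syce1l were called, where 4.98% of all genes were. Kars, head to head with Terf2ip, read 3.76, 3.83, 3.88 and 3.93 in Rap1-/-, against 3.96, 3.83, 4.00 and 4.02 in WT. The groups overlapped, and the difference was -0.10 ± 0.08 SE with a 95% interval of -0.29 to 0.09 (exact permutation p = 0.114). Gabarapl2, an autophagy protein of the ATG8 family, differed by 0.03 ± 0.08 SE, and Tmem231, a protein of the ciliary transition zone, by -0.07 ± 0.18 SE. Adat1, between Gabarapl2 and Kars, is the called gene closest to Terf2ip, at 0.05 Mb, but its dimmer probe gave a difference of 0.21. To the right 0 tested neighbours start within 1 Mb. The first 4 there are Mon1b, which helps to activate RAB7 on endosomes (0.13 ± 0.11 SE), Syce1l, the secreted metalloprotease Adamts18 (-0.44 ± 0.21 SE, exact permutation p = 0.143) and Nudt7, a peroxisomal hydrolase of coenzyme A (-0.10 ± 0.24 SE).

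Called genes were found in 4 of the 5 classes of distance, each of few genes, beside the 4.98% called among all genes. Within 1 Mb, 2 of 17 tested neighbours had an unadjusted p under 0.05, with a median difference of -0.07. The counts were 3 of 16 between 1 and 2 Mb (median 0.07), 0 of 17 between 2 and 3 Mb (-0.03), 1 of 2 between 3 and 4 Mb and 2 of 17 between 4 and 5 Mb (0.01). On the left 7 of 55 were called and on the right 1 of 14. The uncalled genes within 1 Mb all lay within 0.22 of 0.

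The limit of 5 Mb falls among closely spaced genes on the left. Just inside it lies Vps4a (0.33), at 4.98 Mb, and just outside, at 5.08 Mb, lies Sntb2, a syntrophin that links the dystrophin complex to membranes. Sntb2 read 1.69, 1.69, 1.57 and 1.55 in Rap1-/-, against 0.99, 1.23, 0.88 and 0.95 in WT, a difference of 0.62 with no overlap. Over all genes, 0.898% were higher without overlap. By limma's p (0.000217) Sntb2 ranked number 5 among all genes tested, but its adjusted p was 0.874. The genes beside Vps4a and Sntb2 were not called, with Pdf (-0.11) and Cog8 (0.21) inside the limit and Utp4 (-0.01) and Chtf8 (-0.13) outside. On the right Pkd1l2, of the polycystin family (-0.09), is the last gene inside. With a limit of 10 Mb, 14 of 183 genes had an unadjusted p under 0.05 (7.65%), and with 20 Mb 21 of 307 (6.84%), against 4.98% of all genes.

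The neighbours have varied roles, and the lists below sort 66 of the 69 by function. In no list did more than 2 genes reach an unadjusted p under 0.05, which 4.98% of all genes reached. The 12 genes of RNA processing and translation had 6 differences above 0 and 6 below (median -0.02), and Adat1 was the called one. Ddx19a, an RNA helicase of mRNA export, differed by 0.18 ± 0.08 SE (exact permutation p = 0.0571), and Cmtr2, which methylates mRNA caps, by 0.15 ± 0.09 SE. Of 12 listed transcription and chromatin factors, 9 had differences below 0 (median -0.05), and Zfhx3 was the called one. This list held the zinc finger genes Zfp1 and Zfp821. Zfp612, also a zinc finger gene and called higher (0.45), was left out of the lists. Atxn1l, a partner of the repressor Capicua, differed by 0.18 ± 0.09 SE (exact permutation p = 0.0571), and the centromere gene Cenpn by 0.34 ± 0.23 SE near the detection limit.

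On the list of membrane traffic, Golgi and autophagy, Vps4a and Tmem170 were called, both higher in Rap1-/-. The lists were made with earlier results known, so counts of calls do not rank them. Tmem170 came down to 0.03 with normexp and was not called there. Over all genes, 1.67% were called higher. Of the 11 tested members of this list 8 had differences above 0 (median 0.06, range -0.10 to 0.37), and Cog8, of a Golgi tethering complex, differed by 0.21 ± 0.13 SE. Of 3 genes of glycan and sulfate transfer, Chst4 was called lower, the sialyltransferase gene St3gal2 differed by 0.31 ± 0.14 SE (exact permutation p = 0.0857) and the fucose kinase gene Fcsk by 0.02 ± 0.10 SE.

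Of 9 metabolic and mitochondrial genes, 6 had differences below 0 (median -0.10), as had 59.9% of all genes. Cyb5b was the called member. Ldhd, the D-lactate dehydrogenase, differed by -0.22 ± 0.13 SE (exact permutation p = 0.171), and the oxidoreductase gene Wwox by -0.28 ± 0.17 SE (exact permutation p = 0.143). The 3 ubiquitin and proteasome genes lay close to 0, with Wwp2, a ubiquitin ligase, at -0.05 ± 0.09 SE, the proteasome lid subunit Psmd7 at 0.01 ± 0.08 SE and the ligase gene Znrf1 at -0.02 ± 0.09 SE.

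Of 5 immune, secreted and cell death genes, 0 were called. Adamts18 came closest, followed by Il34, a ligand of the macrophage receptor CSF1R (0.15 ± 0.11 SE), and Mlkl, the executioner of necroptosis (-0.14 ± 0.12 SE). Of 6 genes of cilium, cytoskeleton and meiosis, Syce1l was the called one. Marveld3, a tight junction protein, differed by -0.54 ± 0.24 SE (exact permutation p = 0.0857), with 3 Rap1-/- arrays at -3.95 to -3.84 and the other at -3.09, against -3.60 to -2.77 in WT. It was called with the slide as a block. Mtss2, which binds actin and membranes, differed by 0.23 ± 0.12 SE (exact permutation p = 0.171). Of 5 signalling and membrane genes, 0 were called. Vat1l had the widest spread of these, with -1.09 to -0.36 in Rap1-/- against -2.52 to -0.75 in WT (0.65 ± 0.38 SE, exact permutation p = 0.20), and 1 WT array was far below the other 3. The adaptor protein gene Bcar1 differed by -0.11 ± 0.10 SE and the ion channel gene Pkd1l3 by -0.26 ± 0.37 SE.

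For 11 neighbours more than 1 probe was bright enough, which allowed 13 comparisons of a gene's brightest probe with another. The probes of Adat1 went apart. The brightest gave -0.32, while the other read -3.41, -3.48, -3.21 and -3.05 in Rap1-/-, against -3.71, -3.41, -3.15 and -3.71 in WT, a difference of 0.21 ± 0.16 SE. The gap between both, -0.53, separated all Rap1-/- from all WT arrays (exact permutation p = 0.0286, 0.371 after adjustment over the 13 comparisons). For Cyb5b the brightest probe gave -0.47 and the other -0.03 ± 0.15 SE (gap -0.44, exact permutation p = 0.0571). When the probes of a gene were averaged, the differences of Adat1 (-0.06) and Cyb5b (-0.25) were no longer called.

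St3gal2 and the predicted gene Gm1943 showed the opposite case, with a call only on the dimmer probe. The dimmer St3gal2 probe read -3.14, -3.35, -3.42 and -3.52 in Rap1-/-, against -3.97, -3.67, -3.90 and -3.58 in WT, with no overlap (0.42 ± 0.13 SE, exact permutation p = 0.0286), and the brightest gave 0.31. For Gm1943 the dimmer probe gave 0.26 ± 0.10 SE (exact permutation p = 0.0571) and the brightest 0.12 ± 0.13 SE. Tested one by one, 10 of 82 probes had an unadjusted p under 0.05 (12.2%), against 4.83% of all kept probes, and 0 passed an adjusted p of 0.05, where 0.00589% did.

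**Figure D3:**
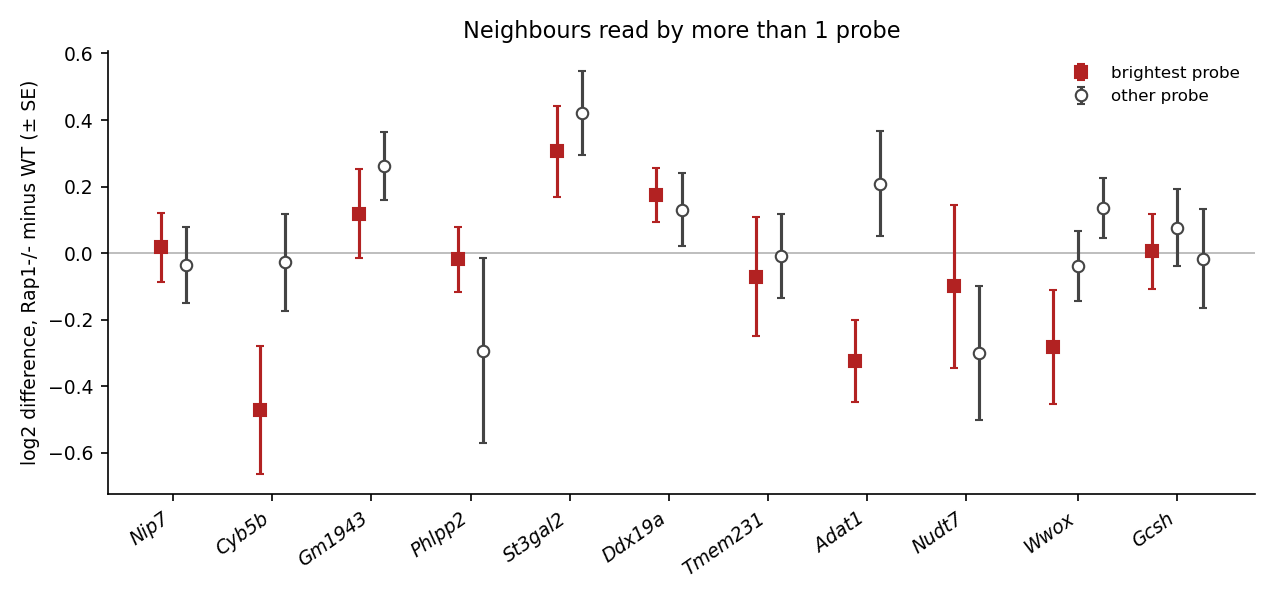
Rap1-/- minus WT difference in log2 units on the vertical axis (bars, SE; n = 4 arrays per genotype) for each kept probe of the 11 neighbours read by more than 1 probe (horizontal axis; squares, brightest probe; circles, other probes). The probes of Adat1 lie at -0.32 and 0.21 and those of Cyb5b at -0.47 and -0.03, while both probes of St3gal2 lie above 0.

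Markers of cell types were uneven between the genotypes as well, and their part in the differences above was not tested. All 8 mesothelial markers, such as Msln and Upk3b, had differences above 0 (median 0.63, 2 with an unadjusted p under 0.05), with a mean over the list of 0.14 to 0.43 on the Rap1-/- arrays and -1.06 to 0.25 on the WT arrays, relative to each gene's mean. Of 8 adipocyte markers 7 had differences below 0 (median -0.24). Cidec, Fabp4, Lipe and Retn had an unadjusted p under 0.05, as had 4.98% of all genes. Lep went the other way, with a difference of 0.63, the largest in size of the 8, and was not called. All 6 skeletal muscle markers had differences below 0 (median -1.56) with 0 called, and their mean was uneven between arrays in both genotypes, from -5.37 to 3.56 in Rap1-/- and from -0.72 to 2.38 in WT. All 5 tested macrophage markers and 5 of 6 fibroblast markers had differences above 0 (medians 0.17 and 0.20), all 4 tested neutrophil markers and 4 of 5 endothelial markers had differences below 0 (medians -0.42 and -0.03), and none of these 20 genes was called. Of 5 epithelial markers, Epcam, Elf5 and Cdh1 were well above background on 1, 1 and 0 arrays, and Krt14 (0.36, called) and Krt5 (0.04) on all 8.

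**Figure D4:**
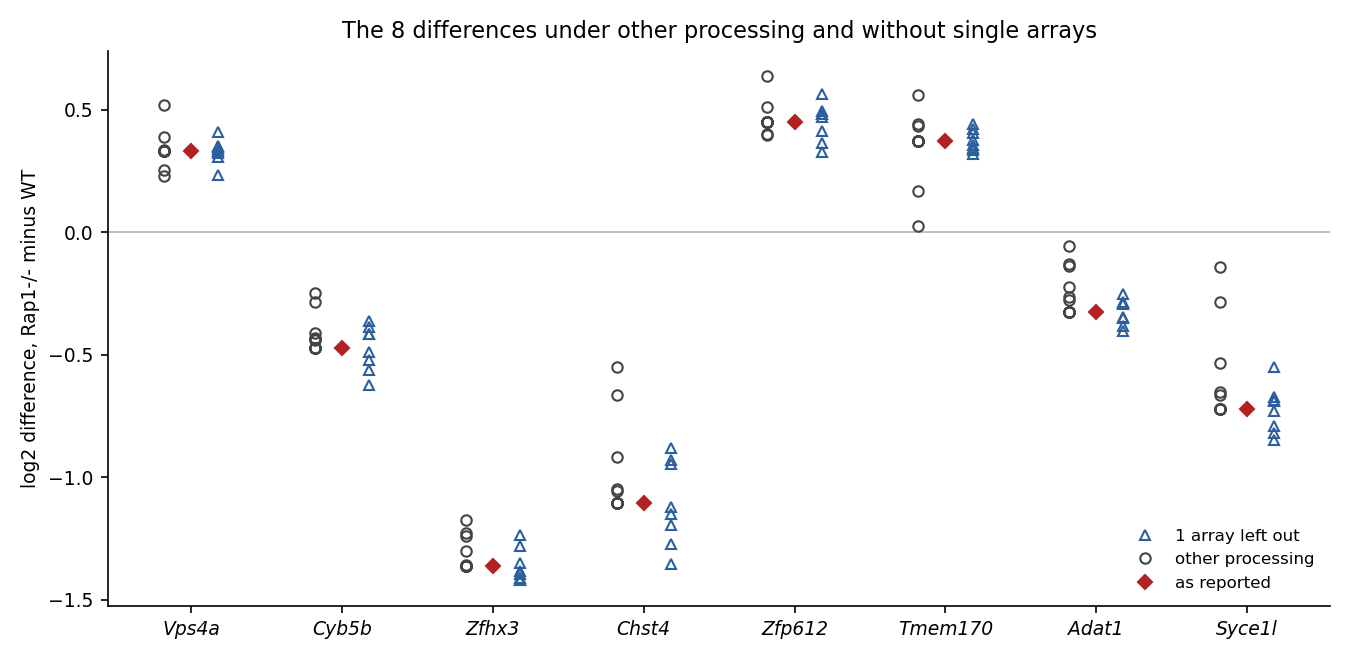
Vertical axis, Rap1-/- minus WT difference in log2 units of the 8 called neighbours, as reported (diamonds), under other processing (circles; background correction, scaling, filters, probe rules, blocks and the authors' value table) and with 1 array left out at a time (triangles). Zfhx3 stays between -1.42 and -1.17, while Tmem170 comes down to 0.03 and Syce1l and Adat1 come close to 0 under some processing.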

How the data were processed

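The authors hybridised total RNA of the 8 fat samples to Agilent 60-mer arrays in a single colour, 1 array per mouse. The deposited scanner files, made with Feature Extraction 10.7.3.1 on a design of build mm9 per the file headers, hold spot intensity values that are not normalised between arrays. A value table that the authors deposited holds log2 values. The submitters' notes name limma and state no normalisation, but normexp (offset 50) and then quantile normalisation matched every array of that table. The table was used as an alternative.

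Log2 processed signals were scaled to each array's 75th percentile, and spots of a probe without an outlier flag were averaged. A probe was kept where 4 or more of the 8 arrays, whatever their genotype, had it well above background, and the probe with the highest mean stood for a gene. Accessions were matched to RefSeq genes of GRCm38.p6, which named 26050 of 55681 probes and gave the distances. Genotypes were compared with limma 3.58.1 (lmFit, eBayes) in R 4.3.3 over 25065 genes or features, with Benjamini-Hochberg adjustment. For single values, all 70 assignments of the arrays were permuted (exact, two-sided). The fit was tested on simulated data. The number of arrays limits the precision.

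Named were neighbours with an unadjusted p under 0.05 on any kept probe or without overlap between genotypes, the 4 nearest on each side, up to 3 per role list by p, and those at the limits of distance and brightness. One gene that this rule names is not reported here. Members, role lists and markers were chosen with earlier results of these data known. Alternatives covered background correction, scaling, the authors' table, filters, probe rules, slide and replicate blocks, the variance model, window sizes and leaving out each array. Fits within each slide were added after the data were seen. Plots were made in Python 3.11.15 with matplotlib 3.10.9.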

Additional observations from a re-analysis of the deposited data

Results flagged for a closer look

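Among 70 groups of 4 arrays of the named neighbours, 4 held an array far from the other 3, where chance marks about 1 in 20. Rap1-/- replicate 3 was the highest of its group for Marveld3 at -3.09, and Rap1-/- replicate 2 the highest for Syce1l at -4.05. WT replicate 4 was the lowest for Zfp612 at -0.58, and WT replicate 3 the lowest for Cenpn at -4.86. Of the neighbours too dim to test, Fa2h was well above background on 2 Rap1-/- arrays, and Clec18a and Pdpr through 1 probe each on 1 Rap1-/- array, while the same probes were so on 0 WT arrays. Another probe of Clec18a was well above background on 0 Rap1-/- arrays and 1 WT array.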

How the results depend on the processing

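The count of 8 neighbours with an unadjusted p under 0.05 was 7 to 10 under the other background correction, scalings, filters, probe rules, blocks and variance model. It was 4 to 12 with 1 array left out, with the 4 reached without Rap1-/- replicate 1 and the 12 without WT replicate 2 (17.4%, where 9.20% of all genes were called). With 2 arrays against 2, it was 3 within slide 1 (Zfhx3, Chst4 and Adamts18; 4.35%, against 4.52% of all genes) and 2 within slide 2 (Zfhx3 and Syce1l; 2.90%, against 3.52%). The slide as a block dropped Cyb5b and added Marveld3, Adamts18 and Wwox. It was 5 of 48 within 2.5 Mb and 14 of 183 within 10 Mb. The count past an adjusted p of 0.05 was 1 instead of 0 with normexp, with the authors' table and with a trended, robust variance, each time Zfhx3 (adjusted p = 0.0186, 0.0466 and 0.0298). The median difference was 0.036 with median scaling and 0.16 with E1A scaling, which moved all genes alike (0.022 and 0.15). None of the 8 called differences changed sign. Of 11 other processing choices Adat1 kept its call in 5 and Cyb5b in 6, and the other called genes in 10 or 11, except Syce1l in 8 of 10. For called genes with 1 kept probe, the filters, the mean of the probes, the blocks and the variance model leave the difference unchanged. Only background correction, scaling and the authors' table alter it. Same-numbered arrays did not deviate together (correlations of -0.22 to -0.13), which gave no sign of pairing by number. Each Rap1-/- array deviated most like the other-numbered WT array of its slide. With 4 arrays per genotype, pairing of the samples cannot be settled. A replicate block gave 10 calls. Several members lie near the detection limit, where Tmem170 and Syce1l depended on background correction.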
